A study of Mus musculus with 72 samples.

Results

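The 8 genes Arg2, Tgfbi, Clec4n, Scimp, Stra8, Wee2, Themis2 and Cd40lg were taken from 19938 genes measured on arrays because their response to retinoic acid (RA) differed between viral leukaemias of the pml-/- and the WT background. Each gene is represented by the probe set of its symbol, and each of the 8 symbols had a single probe set. Levels are log2 values, so a difference of 1 is a 2-fold change, and a level of one probe set cannot be set against that of another.

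The arrays held bone marrow RNA of mice with acute promyelocytic leukaemia (APL), 72 arrays in 16 groups. In the viral transduction model all leukaemias carried the PML/RARA fusion, on the pml-/- or the WT background. Each viral background had 8 RA-treated and 4 untreated arrays at 6 h, and 4 RA-treated and 2 untreated arrays at 12 h. In the transgenic model all mice had the WT background. The PML/RARA fusion had 8 RA-treated and 4 untreated arrays at each time, and the PLZF/RARA fusion 4 RA-treated and 2 untreated arrays at each time. No label or protocol text names the virus, the promoter of a transgene, the host mice or the dose of RA. None says if the arrays of one group stand for different mice or different tumours, and p-values here measure the spread between arrays, which may be technical. Background and leukaemia clone cannot be told apart.

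Array medians of the log2 values lay between 6.56 and 6.81, and no pair of arrays was identical. The labels assign the arrays to 4 batches, which entered each fit as a term. The number of arrays, 2 to 8 in a group, limits the precision.

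PML/RARA fuses the nuclear body protein PML to the retinoic acid receptor alpha and represses genes that the receptor would otherwise activate, which holds the cells at the promyelocyte stage. RA binds the receptor part, lifts the repression and triggers degradation of the fusion, and the PML made by the intact allele then forms nuclear bodies again. PLZF/RARA fuses the same receptor to another protein, and leukaemias with it respond poorly to RA. The title of the series names PML nuclear bodies and p53 in the cure of the disease, and the comparison of backgrounds asks how the RA response differs without Pml.

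The Pml probe set did not tell the backgrounds apart. Its level in untreated leukaemias was 9.08 to 9.52 on the 6 pml-/- arrays and 9.20 to 9.46 on the 6 WT arrays, a difference of -0.04 ± 0.13 (SE; limma, adjusted p = 0.916). No source used here gives the part of the gene that the null allele lacks, so this probe set checks nothing about the labels, and "pml-/-" below means the arrays so labelled. Rara was lower in pml-/- than in WT leukaemias, with a difference of -0.81 ± 0.11 without RA (limma, adjusted p = 7.74e-07), against 20.8% of all genes called in this contrast. The RA treatment itself was visible in both backgrounds: Cyp26a1, which encodes the enzyme that degrades RA, rose by 5.10 ± 0.31 at 6 h and 5.76 ± 0.44 at 12 h in pml-/- leukaemias and by 4.50 ± 0.31 and 4.96 ± 0.44 in WT leukaemias (limma, adjusted p between 1.63e-13 and 4.1e-09), and the difference between backgrounds, 0.70 ± 0.38, did not pass the test (adjusted p = 0.758).

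Because the members were chosen on the viral contrast, their viral values are given as a description with no test. The difference in RA effect, pml-/- minus WT, averaged over 6 h and 12 h, was positive for 5 of the 8 genes and negative for 3. Its size ran from 1.08 to 2.90, against a median size of 0.0746 over all genes, and 1.13% of all genes were called for this difference (limma, Benjamini-Hochberg adjusted p under 0.05). The 8 genes held ranks between 1 and 65 by size of difference among the 19938. Their shapes differed. Clec4n and Scimp were lower with RA mainly in WT leukaemias. Arg2 was lower with RA in WT leukaemias and higher with RA in pml-/- leukaemias, where the groups overlapped at 6 h but not at 12 h. Tgfbi, Stra8, Wee2 and Cd40lg were shifted mainly in pml-/- leukaemias. Themis2 was higher with RA in both backgrounds, less so in pml-/-.

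**Figure D1:**
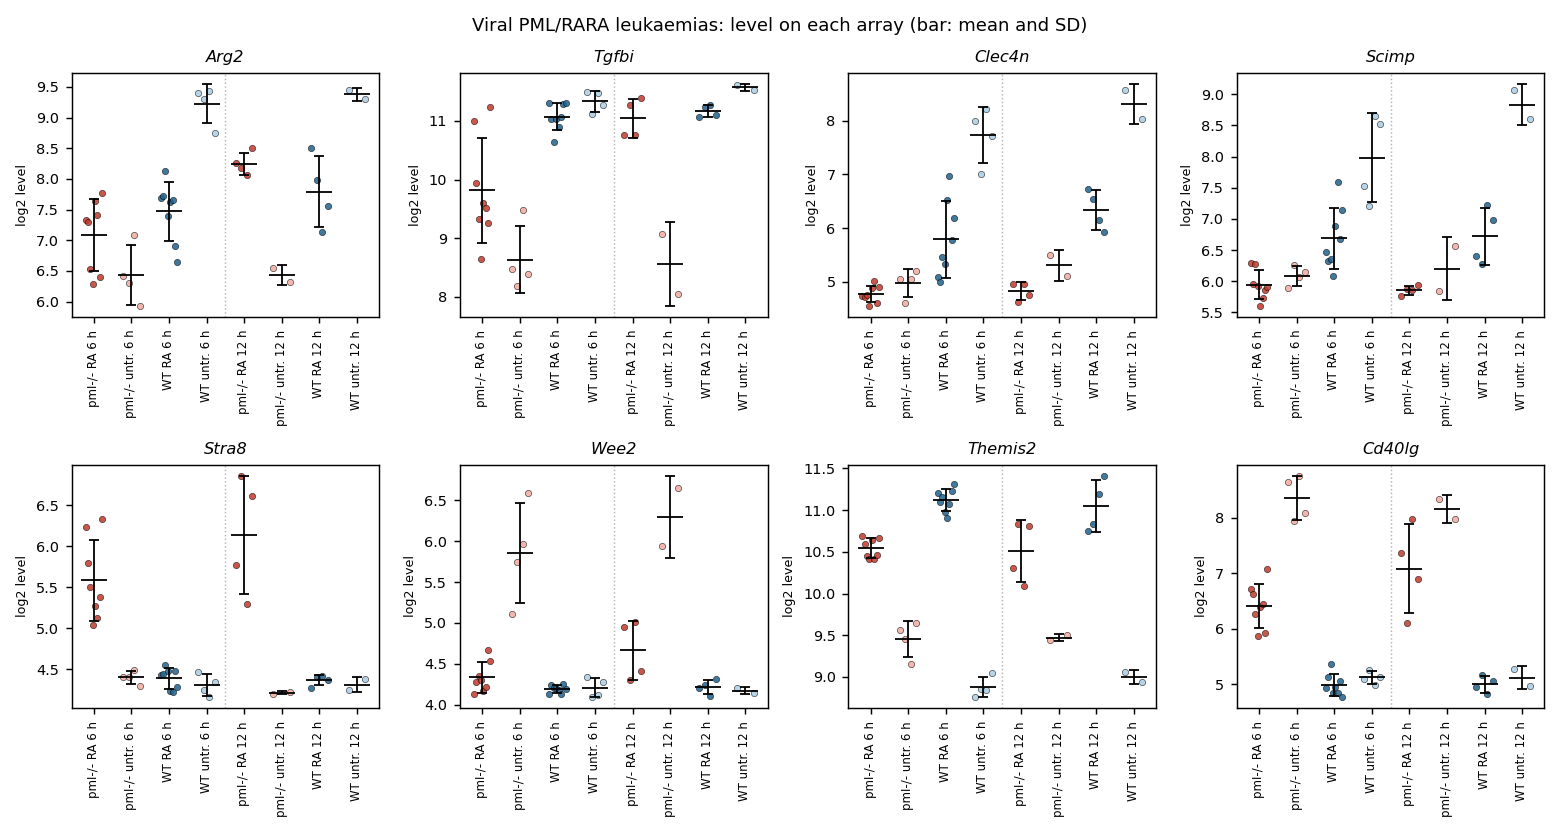
Log2 level of the 8 genes on each of the 36 viral arrays, by background, treatment and time; points are arrays, bars the mean and SD. The untreated WT arrays stand above all others for Arg2 and Clec4n, the RA-treated pml-/- arrays for Stra8 and the untreated pml-/- arrays for Wee2, while the highest groups of Scimp (untreated WT) and Cd40lg (untreated pml-/-) each overlap with RA-treated arrays of the same background.

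Arg2 encodes the mitochondrial arginase, which splits arginine into ornithine and urea. Its level at 6 h in pml-/- leukaemias was 6.28, 7.32 and 7.77 with RA (lowest, median and highest of 8 arrays), against 6.41, 6.30, 7.09 and 5.93 without RA. In WT leukaemias at 6 h it was 6.65, 7.65 and 8.13 with RA (8 arrays), against 9.40, 9.31, 9.44 and 8.76 without. At 6 h the pml-/- groups overlapped and every RA-treated WT array lay below every untreated one. At 12 h the pml-/- arrays read 8.25, 8.18, 8.07 and 8.50 with RA, against 6.55 and 6.32 without, and the WT arrays read 8.50, 7.98, 7.14 and 7.56 with RA, against 9.45 and 9.30 without. By 12 h the RA-treated and untreated arrays were apart in both backgrounds and in opposite directions. The RA effect was 0.65 ± 0.27 at 6 h and 1.81 ± 0.39 at 12 h in pml-/- leukaemias, against -1.75 ± 0.27 and -1.58 ± 0.39 in WT leukaemias (SE). The difference of 2.90 ± 0.34, or 7.47-fold, was the largest of the 19938 genes in this fit. Without RA the pml-/- leukaemias lay 2.87 ± 0.27 below the WT leukaemias (difference -2.87). With RA the difference was -0.39 ± 0.22 at 6 h and 0.45 ± 0.32 at 12 h, which average to 0.03 ± 0.19. Within batches it was 0.09 (batch 3, 6 h), -0.87 (batch 4, 6 h) and 0.45 (batch 3, 12 h).

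Tgfbi encodes a secreted matrix protein that TGF-beta induces and that macrophages make. In pml-/- leukaemias at 6 h it was 8.64, 9.56 and 11.24 with RA (lowest, median and highest of 8), against 8.47, 8.19, 9.48 and 8.40 without. In WT leukaemias it was 10.64, 11.05 and 11.31 with RA (8 arrays), against 11.48, 11.11, 11.47 and 11.27 without. The pml-/- spread at 6 h was wide: replicates 1 and 8 of the RA-treated arrays read 11.00 and 11.24, inside the WT range, and the other RA-treated pml-/- arrays were between 8.64 and 9.94. The same 2 arrays were also the highest of their group for Stra8, at 6.24 and 6.33, and for Cd40lg, at 6.71 and 7.08. At 12 h the pml-/- arrays read 10.77, 11.27, 10.75 and 11.38 with RA, against 9.06 and 8.05 without, and the WT arrays 11.07, 11.23, 11.27 and 11.10 with RA, against 11.61 and 11.53 without. All RA-treated pml-/- arrays at 12 h stood above the untreated ones and overlapped with the RA-treated WT arrays. The RA effect was 1.18 ± 0.30 at 6 h and 2.48 ± 0.43 at 12 h in pml-/- leukaemias, against -0.26 ± 0.30 and -0.40 ± 0.43 in WT leukaemias. The difference averaged 2.16 ± 0.37, with 1.44 ± 0.43 at 6 h and 2.89 ± 0.61 at 12 h.

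Clec4n encodes Dectin-2, a C-type lectin of myeloid cells that binds fungal mannans and signals through the Fc receptor gamma chain. It was low on all 18 pml-/- arrays, whatever the treatment: at 6 h 4.55, 4.75 and 5.01 with RA (lowest, median and highest of 8), against 5.04, 4.60, 5.06 and 5.21 without, and at 12 h 4.97, 4.63, 4.97 and 4.76 with RA, against 5.50 and 5.11 without. The files hold no detection call, so a level this low cannot be told from background signal. The same limit holds for Cd40lg and Wee2 on WT arrays, and for Wee2 on RA-treated pml-/- arrays. It holds for Stra8 on WT and on untreated pml-/- arrays, and for the low levels of Clec4n, Stra8, Wee2 and Cd40lg on transgenic arrays. It may hold for Scimp on pml-/- and transgenic arrays. The size of a difference from such a level is uncertain, and a fall below it may not be seen. For Clec4n, WT arrays at 6 h read 4.99, 5.61 and 6.97 with RA (8 arrays), against 7.99, 7.01, 8.22 and 7.70 without. At 12 h they read 6.73, 6.54, 6.15 and 5.92 with RA, against 8.56 and 8.04 without. RA-treated and untreated WT arrays did not overlap at either time. With these values, RA shifted the level by -0.21 ± 0.21 and -0.47 ± 0.30 in pml-/- leukaemias at 6 h and 12 h, against -1.94 ± 0.21 and -1.96 ± 0.30 in WT leukaemias, a difference of 1.61 ± 0.26. The RA-treated WT arrays at 6 h split by batch: the 4 of batch 4 were between 4.99 and 5.45 and the 4 of batch 3 between 5.77 and 6.97.

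Scimp encodes a transmembrane adaptor of antigen-presenting cells that couples Toll-like receptors to Lyn family kinases, and its pattern was close to that of Clec4n. At 6 h it was 5.60, 5.92 and 6.29 with RA in pml-/- leukaemias (8 arrays), against 5.89, 6.26, 6.06 and 6.14 without. In WT leukaemias at 6 h it was 6.09, 6.57 and 7.59 with RA (8 arrays), against 7.53, 7.21, 8.65 and 8.53 without. At 12 h the pml-/- arrays were at 5.76, 5.87, 5.86 and 5.94 with RA, against 5.84 and 6.56 without, and the WT arrays at 6.41, 6.27, 7.22 and 6.98 with RA, against 9.06 and 8.60 without. Only at 12 h were the RA-treated and untreated WT arrays apart, and the pml-/- groups overlapped at both times. RA minus untreated was -0.14 ± 0.22 and -0.35 ± 0.31 in pml-/- leukaemias at 6 h and 12 h, against -1.29 ± 0.22 and -2.11 ± 0.31 in WT leukaemias, a difference of 1.46 ± 0.27. Before RA the pml-/- leukaemias already differed from the WT ones by -2.26 ± 0.22 for Scimp and by -2.87 ± 0.21 for Clec4n. The Scimp gap varied with the batch. Without RA it was -2.49 (batch 3, 6 h), -1.30 (batch 4, 6 h) and -2.63 (batch 3, 12 h). With RA it was -1.29, -0.20 and -0.86 in the same order.

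Stra8, named for its stimulation by retinoic acid, encodes a protein that germ cells need to enter meiosis. In pml-/- leukaemias it was 5.03, 5.44 and 6.33 at 6 h with RA (lowest, median and highest of 8), against 4.40, 4.40, 4.49 and 4.30 without. At 12 h it was 5.78, 6.86, 5.30 and 6.61 with RA, against 4.20 and 4.22 without. All 12 RA-treated pml-/- arrays stood above all 6 untreated ones. WT leukaemias showed no such shift: at 6 h they read 4.22, 4.43 and 4.55 with RA (8 arrays), against 4.47, 4.25, 4.15 and 4.34 without, and at 12 h 4.27, 4.40, 4.41 and 4.36 with RA, against 4.24 and 4.37 without. RA minus untreated was 1.19 ± 0.21 and 1.93 ± 0.29 in pml-/- leukaemias at 6 h and 12 h, against 0.09 ± 0.21 and 0.05 ± 0.29 in WT leukaemias, a difference of 1.49 ± 0.25. Stra8 was the one gene of the 8 whose untreated levels did not differ by more than 0.5 between the backgrounds (-0.00 ± 0.21).

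Retinoic acid receptors bind pairs of the hexamer AGGTCA and its variants, and the RefSeq promoter table of build GRCm38.p6 (250 bases before to 50 after a start site) held 4 of the 8 genes. The windows of Stra8 (chr6:34920698-34920997, plus strand) and Themis2 (chr4:132796315-132796614, minus strand) are shown because RA raised both genes in at least 1 leukaemia and both contain the hexamer, which is in capitals:
Stra8: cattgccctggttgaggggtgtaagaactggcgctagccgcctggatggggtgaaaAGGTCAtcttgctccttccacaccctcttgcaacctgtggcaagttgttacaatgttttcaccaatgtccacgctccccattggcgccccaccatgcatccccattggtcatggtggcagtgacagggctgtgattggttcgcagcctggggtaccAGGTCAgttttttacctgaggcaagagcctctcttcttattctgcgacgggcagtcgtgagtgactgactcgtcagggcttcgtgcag
Themis2: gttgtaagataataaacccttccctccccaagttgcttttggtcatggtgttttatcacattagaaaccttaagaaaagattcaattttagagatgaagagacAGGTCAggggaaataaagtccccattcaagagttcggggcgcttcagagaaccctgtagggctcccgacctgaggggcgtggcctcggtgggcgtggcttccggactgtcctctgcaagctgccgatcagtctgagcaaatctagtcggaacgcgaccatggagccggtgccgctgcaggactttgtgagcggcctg
The start sites of the Stra8 and Wee2 windows lie inside the annotated spans of these genes, that of Wee2 farther in, so neither window is the one at the outer end of the gene. AGGTCA was found 2 times in the Stra8 window, at positions -194 and -38 from the start site, and 1 time in the Themis2 window, at -147. The windows of Tgfbi (chr13:56609336-56609635) and Wee2 (chr6:40442613-40442912), read on both strands like the others, held none. Tgfbi too was higher with RA, in viral pml-/- and transgenic PML/RARA leukaemias. Among the 32851 promoters searched, 16.3% held at least 1 AGGTCA and 1.81% at least 2. The variant GGGTCA was in none of the 4 windows, nor was the variant AGTTCA or the variant GGTTCA. Direct repeats of any of the 4 hexamers with a spacer of 1, 2 or 5 bases were absent too. By comparison, 43.7% of all promoters held at least 1 of the 4 hexamers and 0.588% a direct repeat. A match is a description of these letters and shows no binding.

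Wee2 encodes the oocyte kinase that inhibits CDK1 and keeps the immature oocyte arrested in meiosis. It was high on untreated pml-/- arrays alone among the viral groups. At 6 h the pml-/- arrays read 4.13, 4.29 and 4.67 with RA (8 arrays), against 5.11, 5.74, 5.97 and 6.59 without, and at 12 h 4.95, 4.30, 5.005 and 4.41 with RA, against 5.94 and 6.66 without. The WT arrays were between 4.09 and 4.34 in all 4 groups, treated or not. RA-treated and untreated pml-/- arrays were apart at both times. RA minus untreated gave -1.52 ± 0.15 and -1.63 ± 0.22 in pml-/- leukaemias at 6 h and 12 h, against -0.02 ± 0.15 and 0.04 ± 0.22 in WT leukaemias, a difference of -1.59 ± 0.19. The 12 h effect in pml-/- leukaemias was -1.99 without untreated replicate 1 and -1.28 without untreated replicate 2. Without RA, Wee2 was 1.89 ± 0.15 higher in pml-/- than in WT leukaemias, and with RA 0.29 ± 0.11. The gap without RA varied with the batch: 2.08 (batch 3, 6 h), 1.21 (batch 4, 6 h) and 2.13 (batch 3, 12 h).

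Themis2 encodes a signalling adaptor of B cells and macrophages, and it was higher with RA in all 4 viral comparisons. At 6 h it was 10.41, 10.53 and 10.69 with RA in pml-/- leukaemias (8 arrays), against 9.57, 9.45, 9.16 and 9.64 without. In WT leukaemias at 6 h it was 10.91, 11.13 and 11.31 with RA (8 arrays), against 8.76, 8.86, 8.84 and 9.05 without. No RA-treated array overlapped with an untreated one in either background, and at 6 h the RA-treated WT arrays stood above all RA-treated pml-/- arrays. At 12 h the pml-/- arrays read 10.30, 10.83, 10.09 and 10.81 with RA, against 9.44 and 9.50 without, and the WT arrays 10.75, 10.83, 11.20 and 11.41 with RA, against 9.06 and 8.94 without. The RA effect was 1.09 ± 0.12 and 1.04 ± 0.17 in pml-/- leukaemias at 6 h and 12 h, against 2.24 ± 0.12 and 2.05 ± 0.17 in WT leukaemias, a difference of -1.08 ± 0.15. The order of the backgrounds turned with treatment: pml-/- minus WT was 0.52 ± 0.12 without RA and -0.56 ± 0.09 with RA.

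Cd40lg encodes the ligand with which activated T cells stimulate CD40 on B cells and macrophages. In pml-/- leukaemias at 6 h it was 5.88, 6.42 and 7.08 with RA (8 arrays), against 8.65, 7.95, 8.75 and 8.08 without, and at 12 h 7.37, 6.10, 7.98 and 6.89 with RA, against 8.34 and 7.98 without. At 12 h the highest RA-treated and the lowest untreated pml-/- arrays both rounded to 7.98. WT arrays at 6 h were at 4.76, 4.94 and 5.35 with RA (8 arrays), against 5.10, 5.26, 4.99 and 5.13 without, and at 12 h at 4.95, 5.17, 4.82 and 5.06 with RA, against 5.26 and 4.97 without. Every pml-/- array stood above every WT array. In RA minus untreated terms the change was -1.95 ± 0.22 and -1.08 ± 0.31 in pml-/- leukaemias at 6 h and 12 h, against -0.14 ± 0.22 and -0.12 ± 0.31 in WT leukaemias, a difference of -1.38 ± 0.27. Without RA, Cd40lg was 3.14 ± 0.22 higher in pml-/- than in WT leukaemias, and 1.76 ± 0.16 higher with RA, both set against WT levels that may be background signal.

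The number of members whose groups were apart varied with the comparison. Between RA-treated and untreated arrays, the pml-/- groups did not overlap for 4 of the 8 genes at 6 h and 7 at 12 h, and for 6.34% and 29.8% of all genes. In WT leukaemias the counts were 3 and 5, against 5.92% and 28.2% of all genes. Untreated pml-/- and WT arrays did not overlap for 7 genes at 6 h and 8 at 12 h (23.6% and 54.5% of all genes). RA-treated pml-/- and WT arrays did not overlap for 3 genes at 6 h and 4 at 12 h (8.02% and 19.4%). The rule used these arrays, so nothing is read from these counts about the members.

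For 7 of the 8 genes the backgrounds differed by more than 0.5 before treatment, and for 6 of the 8 the gap was smaller in RA-treated leukaemias. The sign of the gap was the same with and without RA for 5 of those 7, and the RA gap of Arg2 had opposite signs at 6 h and 12 h. Stra8 and Themis2 were the 2 genes with a wider gap under RA. For all 8 genes the difference in RA effect equals the gap with RA minus the gap without RA, as an RA effect is measured from the untreated arrays of its own background. A large change of the gap was thus what the genes were chosen for. No share over all genes stands beside these counts, so nothing is read from them about RA or the members.

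**Figure D2:**
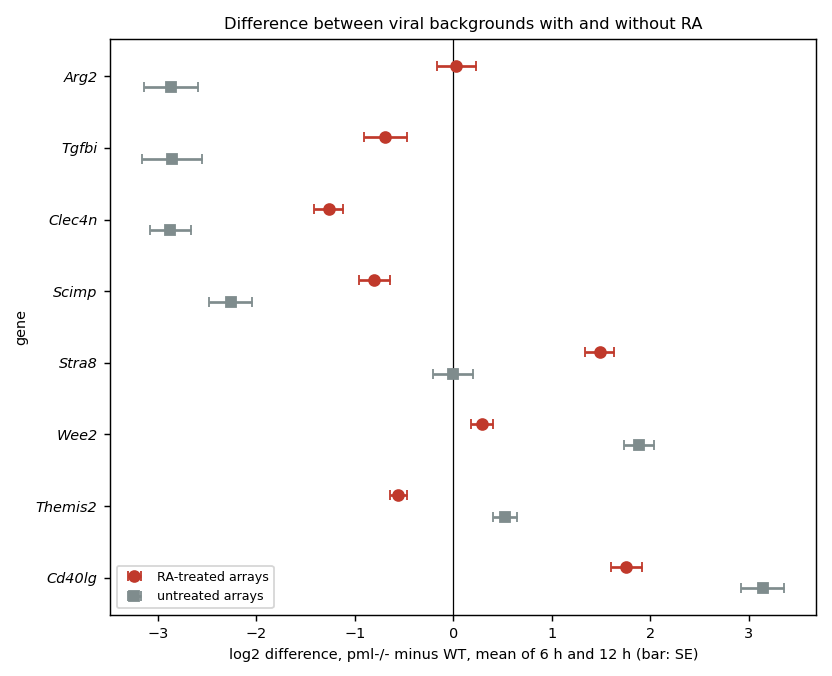
Log2 difference between viral pml-/- and WT leukaemias (mean of 6 h and 12 h, bar SE) for each gene, on RA-treated arrays (circles) and untreated arrays (squares). The genes were chosen on the change from squares to circles. The circles lie nearer to 0 than the squares for 6 of the 8 genes; for Arg2 the difference is 0.03 with RA, the mean of -0.39 at 6 h and 0.45 at 12 h, and -2.87 without RA, and for Stra8 1.49 with RA and -0.00 without.

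Each difference in RA effect kept its sign within every batch that held both treatments and both backgrounds. These are the arrays on which the genes were chosen for large differences, so the kept sign is a description and no independent support. Batch 3 at 6 h, batch 4 at 6 h and batch 3 at 12 h gave 2.68, 2.13 and 3.40 for Arg2, 1.19, 1.69 and 2.89 for Tgfbi, 1.31, 2.16 and 1.49 for Clec4n, and 1.20, 1.10 and 1.77 for Scimp. For Stra8 they gave 1.08, 1.12 and 1.87. The negative members were -1.88, -1.13 and -1.68 for Wee2, -1.04, -1.27 and -1.01 for Themis2, and -1.80, -1.82 and -0.96 for Cd40lg. Over 46 alternative fits the difference ran from 2.13 to 3.40 for Arg2, 1.44 to 2.89 for Tgfbi, 1.40 to 2.16 for Clec4n, 1.10 to 1.77 for Scimp and 1.10 to 1.87 for Stra8, and from -1.78 to -1.13 for Wee2, -1.27 to -1.01 for Themis2 and -1.82 to -0.96 for Cd40lg. These fits included single times and single batches, so the ranges also hold differences between times. Batch 3 at 6 h alone was not among them, and its values for Tgfbi, Clec4n, Stra8 and Wee2 lie outside the ranges.

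The transgenic leukaemias took no part in choosing the genes, so tests are given for them. In transgenic PML/RARA leukaemias, which have the WT background, Tgfbi and Themis2 rose with RA and the other 6 genes did not pass the test, 2 of 8 at each time, against 14.3% of all genes called at 6 h (5.81% upward) and 21.6% at 12 h (9.88% upward; limma, adjusted p under 0.05). The members' median RA effect was 0.08 at both times, beside 0.02 at 6 h and -0.01 at 12 h over all genes. In PLZF/RARA leukaemias Stra8 and Themis2 rose, again 2 of 8 at each time, against 2.20% of all genes at 6 h (1.45% upward) and 4.03% at 12 h (2.46% upward). RA-treated and untreated arrays did not overlap for 2 of the 8 genes at each time in PML/RARA (12.5% and 13.4% of all genes) and for 3 at each time in PLZF/RARA leukaemias (17.9% and 23.5%). The members' median there was -0.04 at 6 h and -0.05 at 12 h, beside 0.06 and -0.05 over all genes.

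**Figure D3:**
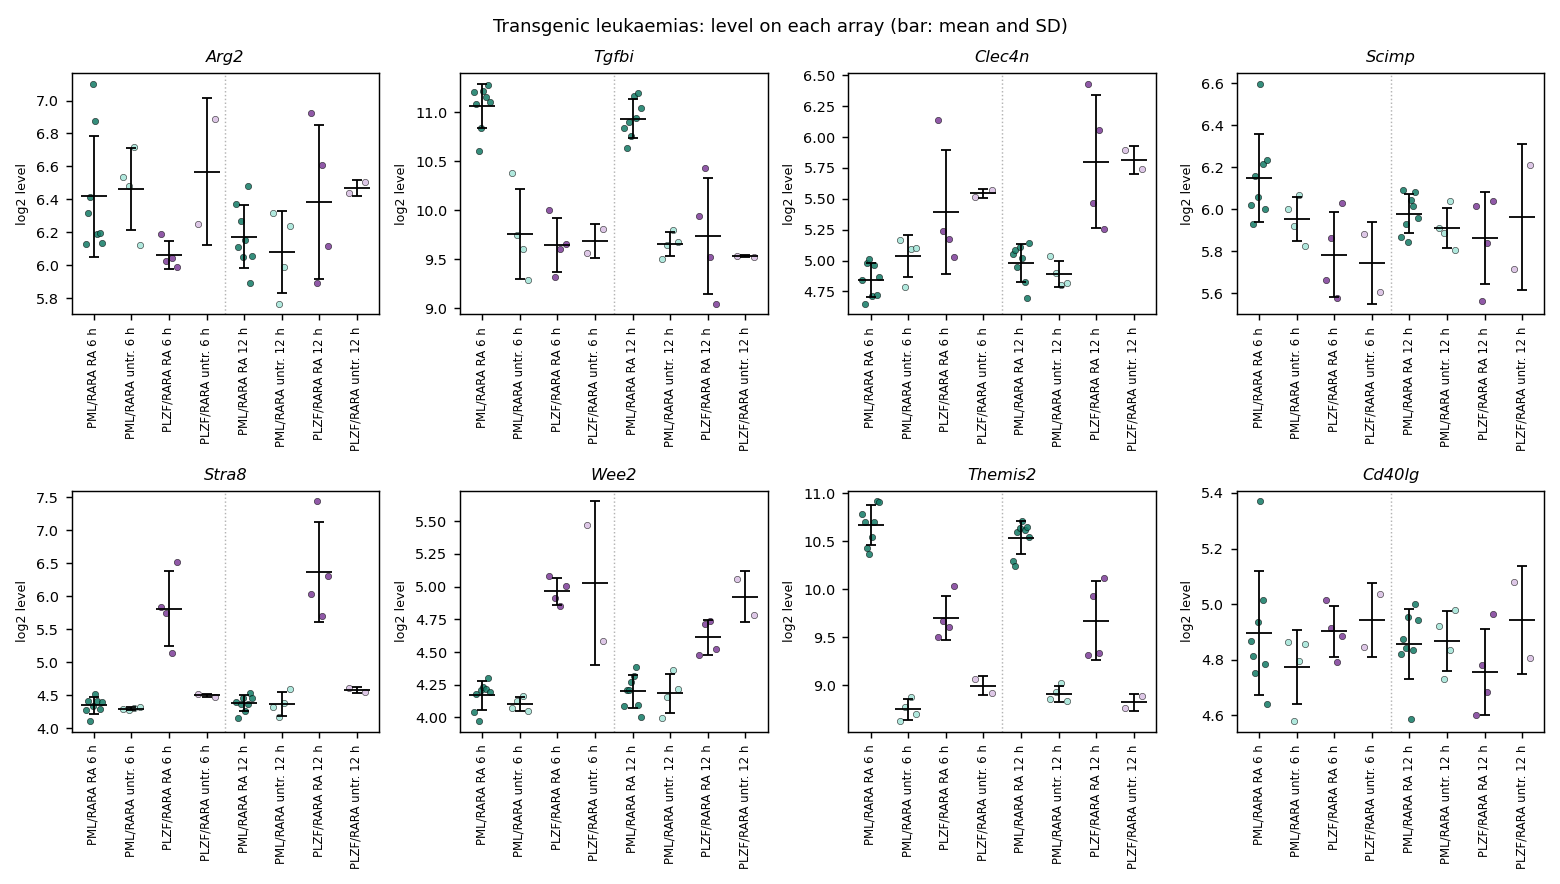
Log2 level of the 8 genes on each of the 36 transgenic arrays, by fusion, treatment and time; points are arrays, bars the mean and SD. RA-treated PML/RARA arrays stand above untreated ones for Tgfbi and Themis2, and RA-treated PLZF/RARA arrays above untreated ones for Stra8 and Themis2.

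Themis2 in PML/RARA leukaemias was 10.37, 10.70 and 10.91 with RA at 6 h (lowest, median and highest of 8), against 8.63, 8.77, 8.88 and 8.70 without, and 10.24, 10.60 and 10.71 with RA at 12 h (8 arrays), against 8.86, 8.92, 9.02 and 8.83 without. It rose by 1.93 ± 0.13 at 6 h and 1.63 ± 0.12 at 12 h (limma, adjusted p = 4.38e-13 and 4.74e-12). In PLZF/RARA leukaemias the values were 9.51, 9.67, 9.60 and 10.03 with RA at 6 h, against 9.07 and 8.92 without, and 9.31, 9.93, 9.34 and 10.11 with RA at 12 h, against 8.76 and 8.89 without. RA-treated arrays stood above untreated ones in both fusions, and RA-treated PML/RARA arrays above all RA-treated PLZF/RARA arrays. The PLZF/RARA rise was 0.71 ± 0.18 at 6 h and 0.85 ± 0.18 at 12 h (limma, adjusted p = 0.0243 and 0.00222). The 6 h call in PLZF/RARA was lost without untreated replicate 1 (0.78, adjusted p = 0.188), untreated replicate 2 (0.64, adjusted p = 0.274) or RA-treated replicate 4 (0.60, adjusted p = 0.0587), in a range over the alternatives of 0.000515 to 0.274. The 12 h call was lost without untreated replicate 1 (0.79, adjusted p = 0.063), the highest over the alternatives, of which the lowest was 0.000386.

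Tgfbi in PML/RARA leukaemias was 10.61, 11.13 and 11.27 with RA at 6 h (8 arrays), against 10.38, 9.75, 9.60 and 9.29 without, and 10.63, 10.92 and 11.20 with RA at 12 h (8 arrays), against 9.50, 9.64, 9.80 and 9.67 without. No RA-treated array overlapped with an untreated one. It rose by 1.38 ± 0.17 at 6 h and 1.28 ± 0.17 at 12 h (limma, adjusted p = 2.87e-07 and 3.45e-07). Within batch 1 and batch 2 the 6 h effect was 1.59 and 1.08 for Tgfbi, and 1.85 and 2.04 for Themis2. In PLZF/RARA leukaemias Tgfbi was 10.00, 9.32, 9.60 and 9.65 with RA at 6 h, against 9.56 and 9.81 without, and 9.94, 10.43, 9.52 and 9.05 with RA at 12 h, against 9.54 and 9.52 without. Those groups overlapped, and the effects were -0.04 ± 0.24 and 0.20 ± 0.24 (limma, adjusted p = 0.956 and 0.742).

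Stra8 turned the other way. In PML/RARA leukaemias it was 4.11, 4.37 and 4.52 with RA at 6 h (8 arrays), against 4.29, 4.27, 4.31 and 4.32 without, and 4.16, 4.39 and 4.54 with RA at 12 h (8 arrays), against 4.32, 4.18, 4.38 and 4.60 without. In PLZF/RARA leukaemias it was 5.84, 5.75, 5.14 and 6.52 with RA at 6 h, against 4.52 and 4.48 without, and 6.04, 7.44, 5.71 and 6.30 with RA at 12 h, against 4.61 and 4.55 without. The PML/RARA groups overlapped, and each RA-treated PLZF/RARA array stood above each untreated one. The effects were 0.05 ± 0.19 and 0.01 ± 0.19 in PML/RARA leukaemias at 6 h and 12 h (limma, adjusted p = 0.923 and 0.982). In PLZF/RARA leukaemias Stra8 rose by 1.32 ± 0.26 and 1.79 ± 0.26 (limma, adjusted p = 0.00365 and 3.81e-05). The 6 h call in PLZF/RARA was lost without untreated replicate 1 (1.34, adjusted p = 0.102) or replicate 2 (1.30, adjusted p = 0.0862), in a range over the alternatives of 0.000146 to 0.102.

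The difference in RA effect between the fusions, PML/RARA minus PLZF/RARA, averaged over both times, was called for 3 of the 8 genes, 2 higher and 1 lower, against 7.42% of all genes (3.35% higher and 4.07% lower). RA-treated arrays of the fusions did not overlap for 5 genes at each time, against 16.3% of all genes at 6 h and 21.8% at 12 h. The difference in RA effect was 1.25 ± 0.21 for Tgfbi (limma, adjusted p = 0.00013), 1.00 ± 0.15 for Themis2 (adjusted p = 4.2e-05) and -1.53 ± 0.23 for Stra8 (adjusted p = 3.2e-05). The call held at each time alone, where 1.51% of all genes were called at 6 h and 2.93% at 12 h: 1.43 at 6 h and 1.08 at 12 h for Tgfbi (adjusted p = 0.00645 and 0.0335), 1.22 and 0.78 for Themis2 (adjusted p = 0.0016 and 0.0394), and -1.27 and -1.78 for Stra8 (adjusted p = 0.0378 and 0.00118). Wee2 was at 0.22 ± 0.12 (adjusted p = 0.344) and was called when PLZF/RARA untreated 6 h replicate 2 was left out (0.44, adjusted p = 0.0112, in a range over the alternatives of 0.0112 to 0.997). The other 4 genes had differences between 0.02 and 0.31 with adjusted p from 0.467 to 0.980.

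**Figure D4:**
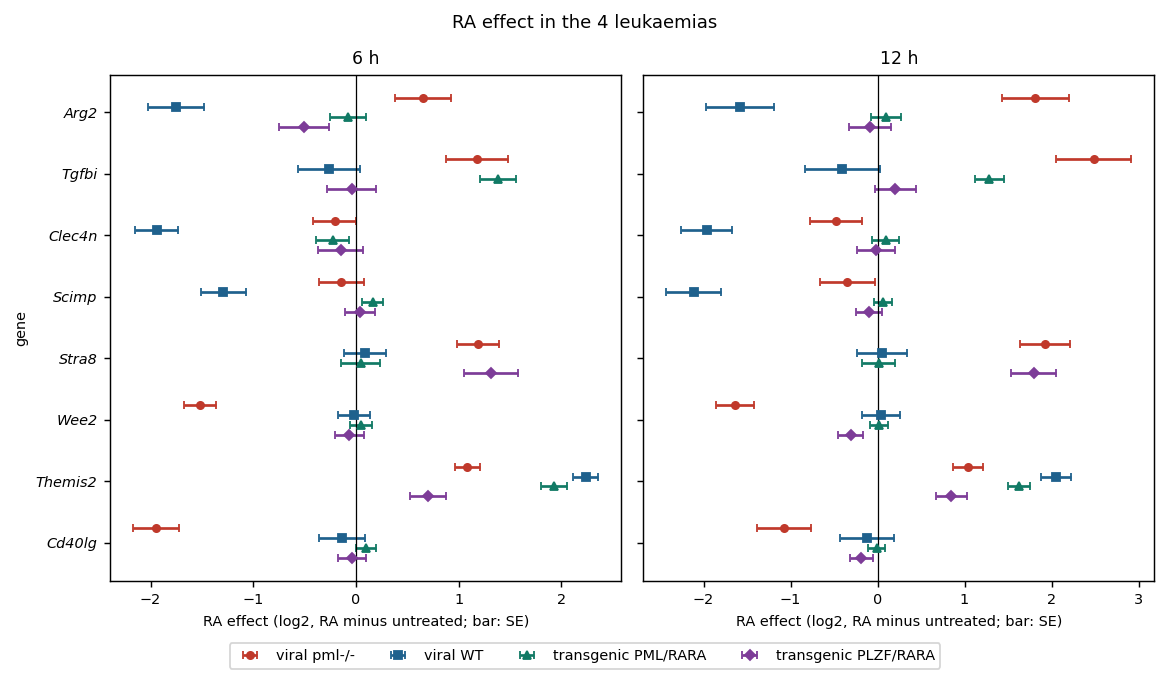
RA effect (RA minus untreated, log2, bar SE) of the 8 genes at 6 h and 12 h in viral pml-/-, viral WT, transgenic PML/RARA and transgenic PLZF/RARA leukaemias. Stra8 is to the right of 0 in pml-/- and PLZF/RARA leukaemias, at 1.19 and 1.32 at 6 h, and Themis2 is to the right of 0 in all 4.

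The RA effects of the 4 leukaemias, which were fitted within each model, stand side by side as follows for the 3 genes called between the fusions. At 12 h Stra8 was at 1.93 in viral pml-/- and 0.05 in viral WT leukaemias, and at 0.01 in transgenic PML/RARA and 1.79 in transgenic PLZF/RARA leukaemias. Themis2 was at 1.04, 2.05, 1.63 and 0.85 in the same order. Tgfbi was at 2.48, -0.40, 1.28 and 0.20. The high Stra8 values were thus in viral pml-/- and PLZF/RARA leukaemias. The high Themis2 values were in the 2 PML/RARA leukaemias of WT background. Tgfbi followed neither pattern, with its high values in viral pml-/- and transgenic PML/RARA leukaemias. The genes were chosen on the viral arrays, so the viral values are a description. No test was made across the models, which share no batch.

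Without RA, 2 of the 8 genes were lower in PML/RARA than in PLZF/RARA leukaemias, against 25.3% of all genes called and 12.2% called lower: Clec4n by -0.69 ± 0.16 (limma, adjusted p = 0.00116) and Wee2 by -0.82 ± 0.10 (adjusted p = 1.14e-07). Wee2 in untreated leukaemias was 4.07, 4.13, 4.17 and 4.05 at 6 h and 4.00, 4.15, 4.37 and 4.21 at 12 h with PML/RARA, against 5.47 and 4.58 at 6 h and 5.06 and 4.78 at 12 h with PLZF/RARA. Clec4n was 5.17, 4.79, 5.10 and 5.10 at 6 h and 5.03, 4.90, 4.80 and 4.82 at 12 h with PML/RARA, against 5.52 and 5.57 at 6 h and 5.90 and 5.74 at 12 h with PLZF/RARA. Untreated arrays of the fusions did not overlap for 4 of the 8 genes at 6 h and 3 at 12 h (46.4% and 31.0% of all genes), Clec4n and Wee2 among them, although at 6 h alone the Clec4n difference was -0.44 (adjusted p = 0.242, the highest of the alternatives, whose lowest was 4.05e-05). The PLZF/RARA level of Wee2 was 4.85 to 5.08 with RA at 6 h and 4.48 to 4.74 at 12 h, and its RA effects of -0.06 ± 0.14 and -0.31 ± 0.14 did not pass the test (adjusted p = 0.880 and 0.282).

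Between 6 h and 12 h the RA effect in PML/RARA leukaemias was called for 0 of the 8 genes, 0 also at an unadjusted p under 0.05 (limma), against 0.231% of all genes. Arg2, Scimp and Cd40lg were called in 0 of the transgenic comparisons given here (limma), and 1 had an unadjusted p under 0.05, that of the RA effect on Arg2 in PLZF/RARA leukaemias at 6 h. Arg2 was between 5.77 and 7.10 on all 36 transgenic arrays, with RA effects of -0.07 ± 0.18 and 0.09 ± 0.17 in PML/RARA and -0.51 ± 0.24 and -0.08 ± 0.24 in PLZF/RARA leukaemias (adjusted p from 0.330 to 0.904). Scimp was between 5.56 and 6.59, with effects of 0.16 ± 0.11 and 0.07 ± 0.10 in PML/RARA and 0.04 ± 0.15 and -0.10 ± 0.15 in PLZF/RARA leukaemias. Cd40lg was between 4.58 and 5.37, with effects of 0.10 ± 0.10 and -0.01 ± 0.10 in PML/RARA and -0.04 ± 0.14 and -0.19 ± 0.14 in PLZF/RARA leukaemias. Clec4n had effects of -0.23 ± 0.16 and 0.09 ± 0.16 in PML/RARA and -0.15 ± 0.22 and -0.02 ± 0.22 in PLZF/RARA leukaemias.

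In order of level over the 8 viral groups, the highest was untreated WT at 12 h for Arg2 (9.38 ± 0.11, SD), Tgfbi (11.57 ± 0.05), Clec4n (8.30 ± 0.37) and Scimp (8.83 ± 0.33), RA-treated pml-/- at 12 h for Stra8 (6.14 ± 0.73), untreated pml-/- at 12 h for Wee2 (6.30 ± 0.51), RA-treated WT at 6 h for Themis2 (11.12 ± 0.13) and untreated pml-/- at 6 h for Cd40lg (8.36 ± 0.40). Most neighbours in these orders were not separated: only 12 of 56 neighbouring pairs of viral groups differed by more than the sum of their SDs, and 6 of 56 transgenic pairs. Arg2 had 1 such step among the viral groups, between untreated WT at 6 h (9.23 ± 0.32) and RA-treated pml-/- at 12 h (8.25 ± 0.18). Stra8 had 1, between RA-treated pml-/- at 6 h (5.58 ± 0.49) and untreated pml-/- at 6 h (4.40 ± 0.08). Wee2 had 1, between untreated pml-/- at 6 h (5.85 ± 0.61) and RA-treated pml-/- at 12 h (4.66 ± 0.36). Themis2 had 3, which separated RA-treated WT, RA-treated pml-/-, untreated pml-/- and untreated WT leukaemias in that order.

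Other genes of their pathways were taken from lists chosen with earlier results of these data known. From 8 lists with 122 measured genes, 3 had a higher and 1 a lower RA effect in pml-/- than in WT leukaemias (limma, adjusted p under 0.05), against 0.752% and 0.381% of all genes. Without RA, 11 of the 122 were higher and 30 lower in pml-/- leukaemias, against 10.9% and 9.92% of all genes. For the viral RA effects, 11.4% of all genes were called at 6 h and 6.05% at 12 h in pml-/- leukaemias, and 9.88% and 6.10% in WT leukaemias. Tlr2, a receptor for bacterial lipoproteins, had a difference in RA effect of 1.08 ± 0.15 (adjusted p = 0.000114): it fell by 0.97 and 1.10 at 6 h and 12 h in WT leukaemias (RA effect -0.97 ± 0.12 and -1.10 ± 0.18, adjusted p = 1.46e-06 and 0.000124) and was not called in pml-/- leukaemias. Clec7a, the beta-glucan receptor Dectin-1, had 1.00 ± 0.21 (adjusted p = 0.0105), with RA effects of -1.16 ± 0.17 and -1.04 ± 0.25 in WT leukaemias (adjusted p = 2.03e-05 and 0.00807). Tnfsf8, the CD30 ligand, had 0.73 ± 0.13 (adjusted p = 0.00136). Dmc1, the recombinase of meiotic strand exchange, had -0.58 ± 0.15 (adjusted p = 0.046).

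The C-type lectin list, in which Clec4n has its relatives, had 1 gene of 17 higher and 0 lower for the difference in RA effect, with a median of 0.12 beside -0.00 over all genes. Without RA 2 were higher and 6 lower in pml-/- leukaemias, with a median of -0.27 beside 0.01 over all genes. The lower ones held the neighbours of Clec4n in the Dectin-2 family, Clec4a1 (-2.39 ± 0.27, adjusted p = 1.69e-08), Clec4a3 (-2.48 ± 0.32, adjusted p = 2.52e-07) and Clec4b2 (-3.29 ± 0.54, adjusted p = 1.38e-05), while Clec4e, the receptor Mincle, was higher (0.50 ± 0.17, adjusted p = 0.0288). In WT leukaemias RA lowered Clec4a1 (-1.22 ± 0.27 at 6 h, adjusted p = 0.00236), Clec4d (-1.14 ± 0.32, adjusted p = 0.0199), Clec4e (-0.66 ± 0.17, adjusted p = 0.00873) and Clec7a.

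Of 15 Toll-like receptor and Scimp adaptor genes, 1 was higher and 0 were lower for the difference in RA effect (median 0.07), and 1 was higher and 7 lower without RA (median -0.12). The 7 included Tlr2 (-2.36 ± 0.12, adjusted p = 3.75e-16), Tlr4 (-1.48 ± 0.29, adjusted p = 0.000162), Tlr1 (-1.01 ± 0.12, adjusted p = 9.71e-08) and Myd88 (-0.65 ± 0.09, adjusted p = 1.63e-06). Of 12 genes of arginine metabolism, none had a called difference in RA effect, and none reached an unadjusted p under 0.05 (limma, median 0.14). Without RA 3 of the 12 were lower in pml-/- leukaemias: the cytosolic arginase Arg1 (-0.75 ± 0.17, adjusted p = 0.00096), the arginine transporter Slc7a2 (-0.55 ± 0.14, adjusted p = 0.00399) and Azin1, an inhibitor of antizyme (-0.88 ± 0.09, adjusted p = 1.13e-09). Of 19 TGF-beta pathway genes, 0 had a called difference (2 at an unadjusted p under 0.05, limma; median -0.00), and RA raised Tgfbr2 and Smad3 in both backgrounds: Tgfbr2 by 0.46 ± 0.10 in pml-/- and 0.52 ± 0.10 in WT leukaemias at 6 h (adjusted p = 0.00333 and 0.000969), and Smad3 by 0.93 ± 0.14 and 0.58 ± 0.14 (adjusted p = 1.76e-05 and 0.00522).

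The list of retinoic acid and meiotic entry genes had 0 of 19 genes higher and 1 lower for the difference in RA effect (median 0.06). Dmc1 was also far higher in pml-/- than in WT leukaemias without RA (3.05 ± 0.12, adjusted p = 3.25e-19), and RA raised it in WT leukaemias (0.49 ± 0.12 at 6 h and 0.85 ± 0.17 at 12 h, adjusted p = 0.00637 and 0.00191). In the transgenic model Dmc1 rose with RA in PLZF/RARA leukaemias at 6 h (0.70 ± 0.19, adjusted p = 0.0391). Of 10 genes of the WEE kinases and the CDK1 switch, 0 were called for the difference (4 at an unadjusted p under 0.05, limma; median -0.17), and Wee1, the somatic relative of Wee2, fell with RA at 6 h in pml-/- leukaemias (-0.55 ± 0.10, adjusted p = 0.000357) and in WT leukaemias (-0.51 ± 0.10, adjusted p = 0.000999). Of 12 genes around Themis2 and antigen receptor signalling 0 were called (2 at an unadjusted p under 0.05, limma; median -0.05), and of 19 genes around CD40 and the TNF ligands only Tnfsf8 was (median -0.01). CD40 itself, the receptor of Cd40lg, was 0.52 ± 0.14 higher in pml-/- leukaemias without RA (Cd40, adjusted p = 0.00634), and the B-cell survival factor Tnfsf13b was 2.05 ± 0.27 higher (adjusted p = 3.42e-07).

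Markers of mature myeloid cells moved with the backgrounds. In bulk marrow, fewer cells of a type and less RNA per cell cannot be told apart. Without RA all 9 mature neutrophil markers were lower in pml-/- than in WT leukaemias (limma, median -2.29), and the mean level of the list was 9.24 to 10.10 on the pml-/- arrays, against 11.48 to 12.13 on the WT arrays. Of 9 monocyte and macrophage markers 7 were lower and 0 higher (median -1.11), with a list mean of 7.84 to 8.41, against 8.87 to 9.39. Over all genes, 9.92% were called lower and 10.9% higher in pml-/- leukaemias without RA. Neither list overlapped between the backgrounds without RA. Arg2, Tgfbi, Clec4n and Scimp, which myeloid cells use, were lower in the same arrays. Themis2, which macrophages use as well as B cells, was higher there (0.52 ± 0.12). The promyelocyte list was mixed, with 3 of 6 higher (Mpo, Ctsg and Cebpe) and 3 lower (Elane, Prtn3 and Ms4a3), and a list mean of 11.11 to 11.62, against 12.34 to 12.47. With RA at 12 h the neutrophil list mean was 9.98 to 10.69 on pml-/- arrays and 11.69 to 12.63 on WT arrays. Of the 9 markers 4 rose with RA in pml-/- leukaemias, against 1 in WT leukaemias. Over all genes, 6.05% and 6.10% were called at 12 h in either direction. Of these markers only Ngp and Lcn2 were called for the difference in RA effect, as given below. No monocyte marker was called for any of the 4 viral RA effects (0 of 9 each, limma) or for their difference, for which 0 also had an unadjusted p under 0.05. The part of these cell types in the members' values was not tested.

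**Figure D5:**
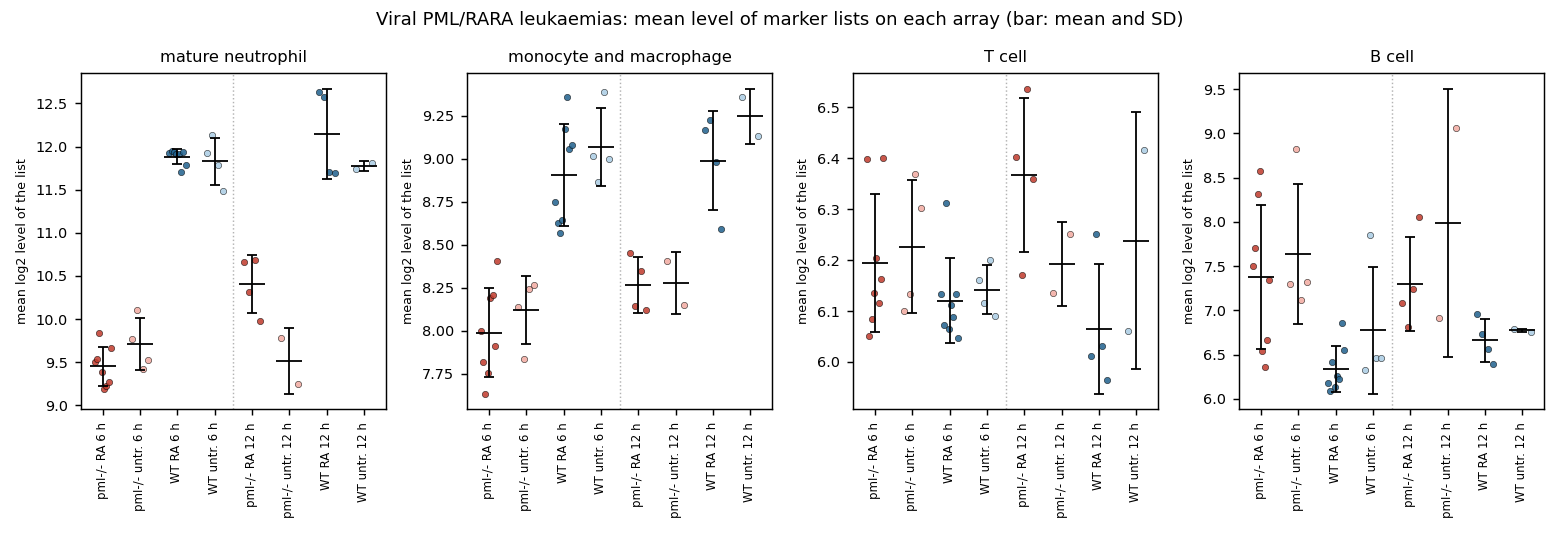
Mean log2 level of 4 marker lists (9 mature neutrophil, 9 monocyte and macrophage, 9 T cell and 6 B cell genes) on each viral array, by background, treatment and time; bars are the mean and SD. The neutrophil and monocyte lists lie lower on pml-/- than on WT arrays, the neutrophil list at 9.24 to 10.10 against 11.48 to 12.13 without RA, and the T cell list overlaps throughout.

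T cell markers are given beside Cd40lg, which T cells are known to make. Without RA 2 of 9 were higher (Cd28 and Cd4) and 2 lower (Cd3g and Cd5) in pml-/- leukaemias, with a median of -0.17, and the list mean was 6.10 to 6.37, against 6.06 to 6.42, while Cd40lg differed by 3.14. For B cells, where Themis2 is used, 3 of 6 markers were higher (median 0.86), with a list mean of 6.92 to 9.06 on pml-/- arrays and 6.33 to 7.85 on WT arrays, and these ranges overlapped. The part of T cells in the Cd40lg values and of B cells in the Themis2 values was not tested. Among mast cell and basophil genes Cpa3 was higher (3.30 ± 0.37, adjusted p = 1.36e-08) and Ms4a2 and Mcpt8 were lower (-1.39 ± 0.15 and -1.39 ± 0.24, adjusted p = 1.21e-08 and 3.77e-05). For the difference in RA effect itself 3 of 72 marker genes were called, all higher, against 0.752% of all genes called higher (limma). They were the neutrophil genes Ngp (0.95 ± 0.20, adjusted p = 0.00909) and Lcn2 (0.60 ± 0.14, adjusted p = 0.0271) and Ms4a2 (0.80 ± 0.19, adjusted p = 0.0254). Of the other lists, dendritic cell markers were 0 higher and 1 lower of 6 without RA, NK cell markers 1 and 3 of 6, megakaryocyte markers 0 and 1 of 4, stroma and endothelium 1 and 0 of 7, and erythroid markers 0 and 0 of 4 (1 at an unadjusted p under 0.05, limma). In the transgenic model 8 of 9 T cell markers were higher in PML/RARA than in PLZF/RARA leukaemias without RA, against 13.1% of all genes, and Cd40lg differed by -0.10 ± 0.10 (adjusted p = 0.544).

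The genes most like each member were found among 3159 genes by Pearson's r over the 16 group means, centred within each model. This is a description, since the groups hold the arrays on which the members were chosen. For Arg2 they were Scel (0.85), Rnd3 (0.85) and Ggt5 (0.83), and for Tgfbi they were Ggt5 (0.95), Slc7a7 (0.93) and Lcn2 (0.93). Clec4n was nearest to Abcg3, Dagla and Ms4a2 (0.96 each), and Scimp to Hcar2 (0.97), Dock4 (0.97) and Steap4 (0.96). Stra8 was nearest to Fmnl2 (0.95), Il1rap (0.92) and Rnase10 (0.90), and Wee2 to E330013P04Rik (0.95), P2ry14 (0.89) and Ccna1 (0.88). Themis2 was nearest to Slc25a44, Slc16a6 and Klhl12 (0.97 each), and Cd40lg to Glcci1 (0.97), Steap2 (0.96) and Syt17 (0.95). Among the members themselves Clec4n and Scimp were the closest pair (0.92), followed by Wee2 and Cd40lg (0.83), and Tgfbi and Wee2 were the most opposed (-0.84). The 8 genes lie on chromosomes 12 (Arg2), 13 (Tgfbi), 6 (Clec4n, Stra8 and Wee2), 11 (Scimp), 4 (Themis2) and X (Cd40lg), and none is on chromosome 9 with Pml.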

How the data were processed

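Total RNA of bone marrow was hybridised to Affymetrix Mouse Gene 1.0 ST arrays. The deposited log2 values were made by the authors with RMA in the affy package, per the submitters' processing notes, which give no versions or background settings in the sources used here. Of 35556 probe sets, 21789 have 1 gene symbol in the platform annotation, and the brightest for each symbol gave 19938 genes. For the 36 arrays of each model a linear model with 1 coefficient per group and the labelled batch as a term was fitted with limma 3.58.1 in R 4.3.3 (eBayes, 2-sided, Benjamini-Hochberg adjustment over all genes, threshold 0.05). A difference of RA effects is the mean over both times unless a time is given. The fit was also run on simulated data, but the outcome is not given here, so nothing above rests on it. Replicates were numbered in accession order, which pairs no samples. The members, the pathway lists and the marker lists were chosen with earlier results of these data known. Of 215 listed genes, 20 were not analysed here. Besides the members, the named genes were Pml and Rara, called list genes, Cyp26a1, and the 3 genes nearest to each member. Alternatives were another quantile normalization, dim genes left out, no batch term, array weights, a trended prior, pooled untreated arrays, single times, single batches and leaving out each array.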

Additional observations from a re-analysis of the deposited data

Results flagged for a closer look

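In the RA-treated PML/RARA transgenic leukaemias at 6 h, replicate 5 had a Scimp level of 6.59, apart from the next highest array at 6.23. In the RA-treated PML/RARA transgenic leukaemias at 12 h, replicate 5 had a Cd40lg level of 4.59, below the next lowest array at 4.82. These were 2 of 96 group values examined for a lone far array, and chance marks about 1 in 20.

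The RA effect differed between the transgenic fusions, PML/RARA minus PLZF/RARA, by 1.25 for Tgfbi, 1.00 for Themis2 and -1.53 for Stra8 (limma, adjusted p = 0.00013, 4.2e-05 and 3.2e-05).

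In the viral model every RA-treated array was set against the untreated mean of its own background. For Arg2 at 12 h all pml-/- arrays moved up and all WT arrays down, with a difference in RA effect of 3.40. Tgfbi did so at 6 h, with a difference of 1.44, and at 12 h, with 2.89. At 6 h the lowest RA-treated pml-/- array, at 8.637, was barely above the untreated mean of 8.635. RA-treated and untreated Tgfbi levels overlapped in both backgrounds at that time. These viral differences were not tested, because the genes were chosen on them.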

How the results depend on the processing

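No paired analysis was possible because the labels give every array the same replicate number. Each member has a single probe set, so no other probe set could be tried. Of the transgenic values of single genes, 379 of 403 kept direction and call under the alternatives other than leaving out an array, and 815 of 864 when an array was left out. In the viral model the difference in RA effect kept its sign for each of the 8 members under every alternative run. The genes were chosen for large differences on these same arrays, so a kept sign is no independent support. Of all viral values, 25 of 464 moved by more than the residual SD, and 2 of 864 did when an array was left out. Some viral values near 0 changed sign: over the alternatives, Arg2 between backgrounds with RA ran from -0.87 to 0.45, Stra8 between backgrounds without RA from -0.097 to 0.096, the RA effect on Scimp in pml-/- leukaemias at 6 h from -0.32 to 0.041, and that on Wee2 in WT leukaemias from -0.052 to 0.044 at 6 h and -0.048 to 0.046 at 12 h. When an array was left out, the first 2 and the Wee2 effect at 6 h again took both signs, as did RA effects at 12 h on Scimp in pml-/- leukaemias (-0.71 to 0.015) and on Stra8 (-0.013 to 0.12) and Cd40lg (-0.27 to 0.026) in WT leukaemias. The PLZF/RARA count at 6 h, 2 members, was 1 under another quantile normalization, where Themis2 was at 0.67 (limma, adjusted p = 0.059), and 0 to 2 when an array was left out. At 12 h it was 1 to 2 when an array was left out. The untreated fusion count, 2 members, was 0 with dim genes left out, a filter that removes Clec4n, Wee2 and Cd40lg, and 1 at 6 h only. With untreated arrays pooled, Wee2 in PLZF/RARA at 12 h was called (-0.36, limma, adjusted p = 0.049). For the effects that reversed, the cause was not tested, and none of them passed the test in either setting.

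Another quantile normalization gave -0.050 for Scimp in PLZF/RARA at 6 h, 0.041 for Clec4n in PLZF/RARA at 12 h and 0.011 for Stra8 between times. Array weights, whose estimation stopped before reaching its tolerance in at least 1 fit, gave -0.081 for Stra8 in PML/RARA at 12 h and 0.092 for Clec4n in PLZF/RARA at 12 h. Pooled untreated arrays gave 0.15 and -0.090 for Arg2 in PML/RARA at 6 h and 12 h, 0.011 for Cd40lg in PML/RARA at 12 h, 0.034 for Tgfbi and -0.071 for Scimp in PLZF/RARA at 6 h, 0.12 for Clec4n and 0.010 for Scimp in PLZF/RARA at 12 h, and -0.24 for Arg2, 0.025 for Stra8 and 0.013 for Wee2 between times. At 6 h only, the Clec4n fusion difference was -0.078 and untreated Tgfbi -0.088. At 12 h only, untreated Scimp was -0.051 and untreated Themis2 0.086. Batch 1 only gave 0.065 for Arg2 in PML/RARA at 6 h and -0.058 for untreated Tgfbi.

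When 1 array was left out, effects in PLZF/RARA at 12 h ran from -0.26 to 0.081 for Arg2, -0.029 to 0.43 for Tgfbi, -0.23 to 0.16 for Clec4n and -0.34 to 0.15 for Scimp. Those at 6 h ran from -0.16 to 0.079 for Tgfbi, -0.10 to 0.17 for Scimp, -0.50 to 0.38 for Wee2 and -0.14 to 0.054 for Cd40lg. In PML/RARA the ranges were -0.26 to 0.016 for Arg2 at 6 h and, at 12 h, -0.0088 to 0.18 for Arg2, -0.053 to 0.088 for Stra8, -0.046 to 0.076 for Wee2 and -0.054 to 0.029 for Cd40lg. Between times they were -0.25 to 0.041 for Tgfbi, -0.099 to 0.042 for Stra8 and -0.096 to 0.026 for Wee2. The fusion difference was -0.074 to 0.14 for Clec4n and -0.0012 to 0.44 for Wee2, and the untreated one -0.043 to 0.10 for Tgfbi and -0.011 to 0.23 for Scimp.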
